A study of Homo sapiens with 8 samples.

Results

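Extracellular matrix and mesenchymal genes were followed by name through 8 Affymetrix arrays of cancer cells treated to lower CD24, a small glycosylated protein of the cell surface, with shRNA, or to block it with a monoclonal antibody. The list held 34 genes. A probe set that the platform annotation used here assigns to 1 gene symbol was found for 32 of them, among 11963 genes with such a probe set in all. COL17A1, a hemidesmosome collagen, and LAMA3, a laminin alpha chain, have no value here. Where a gene had several such probe sets, the one brightest on average across the 8 arrays stood for it. That choice of probe set used no measured difference. The genes themselves were chosen with earlier results of these data known. The 32 genes have 83 probe sets in all, and 22 of the genes have several.

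Total RNA of the established colorectal cancer line HT29 and the established pancreatic cancer line Colo357 was labelled with biotin and hybridised to a human Affymetrix GeneChip. Untreated HT29, untreated Colo357, and each line after 72 h with the anti-CD24 antibody SWA11 at a dilution of 1 to 40 gave 1 array each. Of the HT29 derivatives, a clone with shRNA against GFP and a clone with 1 vector for shRNA against CD24 gave 1 array each, and 2 HT29 clones carrying 2 CD24-directed vectors gave 1 array each. Every shRNA sample was therefore a clone, and the untreated and antibody-treated HT29 cells were not. The labels do not say whether the arrays came from independent cultures, so every p-value measures the spread between these samples only. The comparisons share arrays: untreated HT29 serves in all of them except the antibody comparison within Colo357 and the comparison of 2 vectors with 1, and the GFP clone counts as a clone in one comparison and as a control in another. The study asked how expression in these cells differs after CD24 is lowered or blocked.

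Mesenchymal cells build their surroundings from a shared set of secreted proteins. Fibronectin and tenascin-C are glycoproteins that cells grip through integrins, fibrillar collagens give tensile strength to interstitial tissue, and type IV collagen and laminins form the sheet beneath epithelia. The same cells carry an actin cytoskeleton rich in tropomyosins, caldesmon and transgelin, and vimentin as their intermediate filament. Carcinoma cells express parts of this set to very different degrees, and transforming growth factor beta is a well-known inducer of many of its genes.

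For the members that were higher in all shRNA clones, the DNA just upstream of an annotated start is shown first. These 5 genes carry the main result. RefSeq (GRCh38.p14) gave a promoter window for 27 of the 34 members. The sequences are the 250 bases that end at the base before an annotated start, on the strand of the gene, in lower case. The TPM1 window lies inside the gene, which begins at 63042747, so it is not the DNA upstream of the whole gene. Capitals mark the GC box GGGCGG or its reverse complement. FN1 lies at chr2:215436069-215436318 on the minus strand, CD99 at chrX:2691045-2691294 on the plus strand, TNC at chr9:115118158-115118407 on the minus strand, TGFBI at chr5:136028738-136028987 on the plus strand and TPM1 at chr15:63048239-63048488 on the plus strand.
FN1: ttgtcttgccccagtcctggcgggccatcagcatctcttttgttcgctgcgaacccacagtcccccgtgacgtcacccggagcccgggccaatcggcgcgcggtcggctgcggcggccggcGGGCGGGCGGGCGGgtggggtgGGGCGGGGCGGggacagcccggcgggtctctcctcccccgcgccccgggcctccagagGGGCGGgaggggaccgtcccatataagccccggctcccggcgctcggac
CD99: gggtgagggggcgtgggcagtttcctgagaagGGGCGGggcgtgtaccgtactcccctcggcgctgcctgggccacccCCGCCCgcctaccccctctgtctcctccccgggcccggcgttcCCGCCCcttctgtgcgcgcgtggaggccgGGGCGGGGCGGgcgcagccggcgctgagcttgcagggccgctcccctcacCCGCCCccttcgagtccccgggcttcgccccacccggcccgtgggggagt
TNC: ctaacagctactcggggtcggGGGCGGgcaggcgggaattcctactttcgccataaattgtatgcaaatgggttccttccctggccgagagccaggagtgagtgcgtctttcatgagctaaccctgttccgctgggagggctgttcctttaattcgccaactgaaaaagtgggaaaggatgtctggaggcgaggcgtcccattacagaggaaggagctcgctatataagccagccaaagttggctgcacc
TGFBI: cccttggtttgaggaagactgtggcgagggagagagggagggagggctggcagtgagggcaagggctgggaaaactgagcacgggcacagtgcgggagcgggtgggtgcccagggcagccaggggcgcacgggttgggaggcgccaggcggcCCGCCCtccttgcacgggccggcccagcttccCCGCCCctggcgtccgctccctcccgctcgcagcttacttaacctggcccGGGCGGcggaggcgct
TPM1: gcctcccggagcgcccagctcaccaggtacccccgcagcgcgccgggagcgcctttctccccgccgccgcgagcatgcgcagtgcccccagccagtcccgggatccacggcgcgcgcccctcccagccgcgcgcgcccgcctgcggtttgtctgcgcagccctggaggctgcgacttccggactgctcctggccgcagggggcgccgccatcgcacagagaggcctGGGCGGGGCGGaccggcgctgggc

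The GC content of these windows was 76.4% for FN1, 78.0% for CD99, 72.8% for TGFBI and 78.4% for TPM1, against a median of 58.0% over all 35093 RefSeq windows of this length. They held 32, 28, 20 and 34 CpG dinucleotides in that order, where the median window held 11. TNC stood apart with 54.8% GC, 12 CpG dinucleotides and a single GC box, 229 to 224 bases before its start. FN1 and CD99 each held 6 GC boxes, counting overlapping matches, and 42.6% of all windows held at least 1. The GC box was added to the search after the windows had been looked at. A further 6 motifs had been listed earlier: the CArG box (in 1.16% of all windows), AP-1 TGANTCA (6.57%), TEAD GGAATG (11.9%), the E-box CAGGTG (17.5%), the palindromic SMAD site GTCTAGAC (0.182%) and the TATA box TATAAA (10.7%), each on both strands. None of the 6 occurred in these 5 windows, which says only that those letters are not in them. A CArG box was found in 1 member, TGFB1I1.

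Array medians ran from 32.4 (first 2-vector clone) to 63.1 (GFP clone). On its brightest probe set CD24 itself read 171.7 to 595.5 in the CD24 shRNA clones and 6425.1 and 7362.5 in their controls, untreated HT29 and the GFP clone. The first 2-vector clone also had an ACTB 3' to 5' ratio of 1.77, where the other arrays lay between 1.06 and 1.17, and an 18S rRNA control of 434.8, where the others lay between 14.7 and 48. The keratins KRT8 and KRT18 were bright on all arrays, and KRT20 was bright on the HT29 arrays and at 6.7 and 13.7 in Colo357. Of the intestinal markers, CDX1 and CDX2 were dim on all 8 arrays (at most 27), and CDH17 read at most 30.4 on the HT29 arrays. Of the 10 fibroblast and stellate cell markers, 3 of which are members, 1 or 2 lay above 45.0 on any array. That value is the median of all non-control values of the 8 arrays together. The summed intensity of the 10 markers was 151 to 171 in uncloned HT29, 173 to 239 in the 4 clones and 286 to 292 in Colo357. FAP, PDGFRA and POSTN stayed at 21.4 or less everywhere, whereas LUM read 107.2 and 49.8 in Colo357 and at most 8.2 elsewhere, and DCN read 56.6 in the 1-vector clone and 2.6 in untreated HT29.

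**Figure D1:**
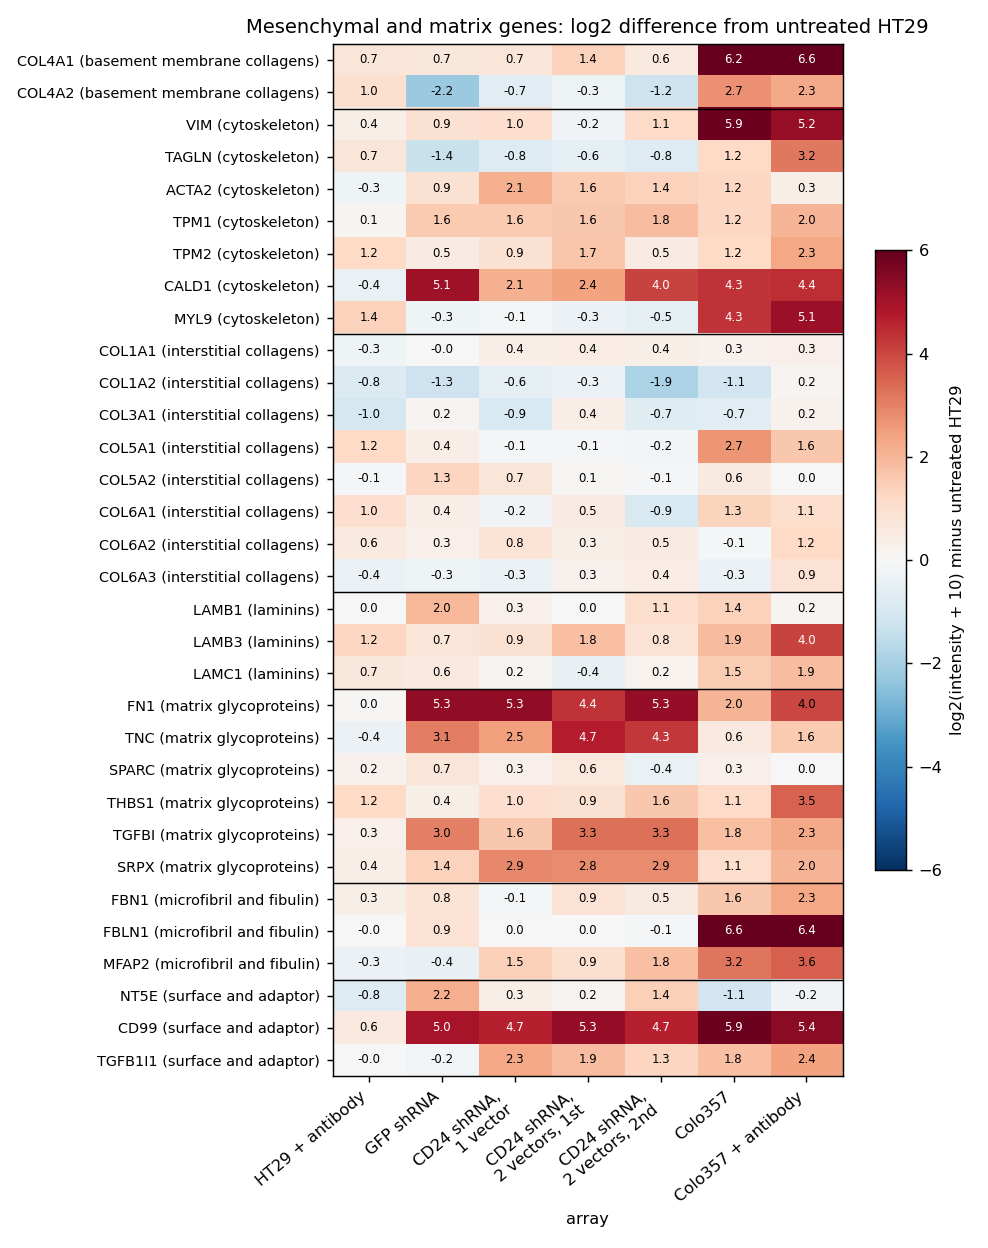
Log2(intensity + 10) of the 32 measured genes on 7 arrays, each minus the same gene in untreated HT29; rows are genes grouped by role, columns are arrays, red is higher and blue lower, and the difference is printed in each cell. FN1, TNC, TGFBI, CALD1 and CD99 are high across all 4 shRNA clones, while COL4A1, VIM and FBLN1 are high in the Colo357 columns.

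The first comparison set the 4 shRNA clones, whatever their target, against the 2 uncloned HT29 arrays. Fibronectin, tenascin-C, the TGF-beta-induced matrix protein TGFBI, tropomyosin 1 and the surface protein CD99 rose in the clones, by 1.57 on the log2 scale for TPM1 to 5.04 for FN1. For each of them the GFP clone read within the range of the CD24 shRNA clones or, for FN1, just above it. No member was called lower. The 5 members were called among 19 that lay above the filter on low values, and over all 6753 genes tested 2.43% were called higher and 0.755% lower. Of the 19 members, 8 (FN1, TNC, ACTA2, CALD1, SRPX, MFAP2, CD99 and TGFB1I1) read at or below the probe set median of uncloned HT29 and passed the filter only through the clones, so that share supports nothing by itself. Over all 32 measured members, with no filter, the median difference was 0.45, with 25 positive and 7 negative, against 0.03 over all 11963 genes. In bulk RNA, fewer cells with a transcript and less of it per cell cannot be told apart.

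FN1, which encodes fibronectin, the glycoprotein that links integrins to other matrix, read 2.1 in untreated and 2.5 in antibody-treated HT29. The GFP clone read 479.6, the 1-vector clone 471.8, and the 2-vector clones 237 and 452.5. The groups did not overlap, and the lowest clone was far above the brighter uncloned array. The difference was 5.04 ± 0.38 (log2 scale, limma's SE, n = 4 and 2), with adjusted p = 0.00103 by limma. Both uncloned values are far below the array medians, so the size depends on the constant added before the log: it was 6.91 adding 1 and 3.09 adding 50. The call held in the 13 distinct alternatives run for it, with an adjusted p of at most 0.0334. Of the 6 FN1 probe sets, 4 differed by 4.84 to 5.04, and the other 2, both dim, by -0.04 and 1.57.

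CD99, a surface glycoprotein known from leukocyte migration and from Ewing sarcoma, behaved alike. It read 16.4 and 29 in uncloned HT29. In the GFP clone it read 809.5, in the 1-vector clone 663.1, and in the 2-vector clones 1005.3 and 666.5. The 4 clones lay close together and far from both uncloned arrays. The difference was 4.61 ± 0.34 (adjusted p = 0.00103, limma), and its other probe set gave 4.11. Its size was 5.08 adding 1 and 3.51 adding 50, since the uncloned values are again dim. This call also held in the 13 alternatives, with an adjusted p of at most 0.0275.

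TNC, tenascin-C, a matrix glycoprotein of wound edges and tumour stroma, read 11.6 and 6.7 in uncloned HT29, 174.2 in the GFP clone, and, with shRNA against CD24, 108 from 1 vector and 555.2 and 404.7 from 2. Its difference was 3.81 ± 0.63 (adjusted p = 0.0216, limma). TGFBI, a secreted adhesion protein named for its induction by TGF-beta, read 514.6 and 632.8 without cloning, 4187.8 in the GFP clone, 1602 in the 1-vector clone, and 5236 and 5143.6 with 2 vectors. All clones lay above both uncloned arrays, the 1-vector clone least so for both genes. The TGFBI difference was 2.66 ± 0.52 (adjusted p = 0.0383, limma). TPM1, a tropomyosin that lies along actin filaments, read 483.8 and 537.3 without cloning and 1446.3 to 1753 in the clones. It had the smallest spread of the 5 genes, with an SD of 0.13 over the clones. Its difference was 1.57 ± 0.29 (adjusted p = 0.0297, limma), and its 3 other probe sets differed by 1.12 to 1.42.

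The calls for TNC, TGFBI and TPM1 leaned on single arrays, while with 1 array left out their differences stayed between 3.45 and 4.21 for TNC and between 2.49 and 3.06 for TGFBI, and reached at most 1.64 for TPM1. Without untreated HT29 the adjusted p was 0.125 for TNC, 0.217 for TGFBI and 0.200 for TPM1. Without antibody-treated HT29 it was 0.186, 0.203 and 0.194 in that order. Without the second 2-vector clone it was 0.0665, 0.104 and 0.0996. TGFBI and TPM1 also missed the threshold without the first 2-vector clone (0.0811 and 0.0699), and TPM1 without the 1-vector clone (0.0832). With the mean of a gene's probe sets TPM1 was not called either (1.33, adjusted p = 0.0517), and TNC fell below the filter and was not tested. The number of members called was 2 without either uncloned array, 3 without the first 2-vector clone, 2 without the second, 4 without the 1-vector clone and 10 without the GFP clone. Over all genes the count was 27 without untreated HT29, 8 without antibody-treated HT29, 120 without the first and 61 without the second 2-vector clone, 96 without the 1-vector clone and 478 without the GFP clone.

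**Figure D2:**
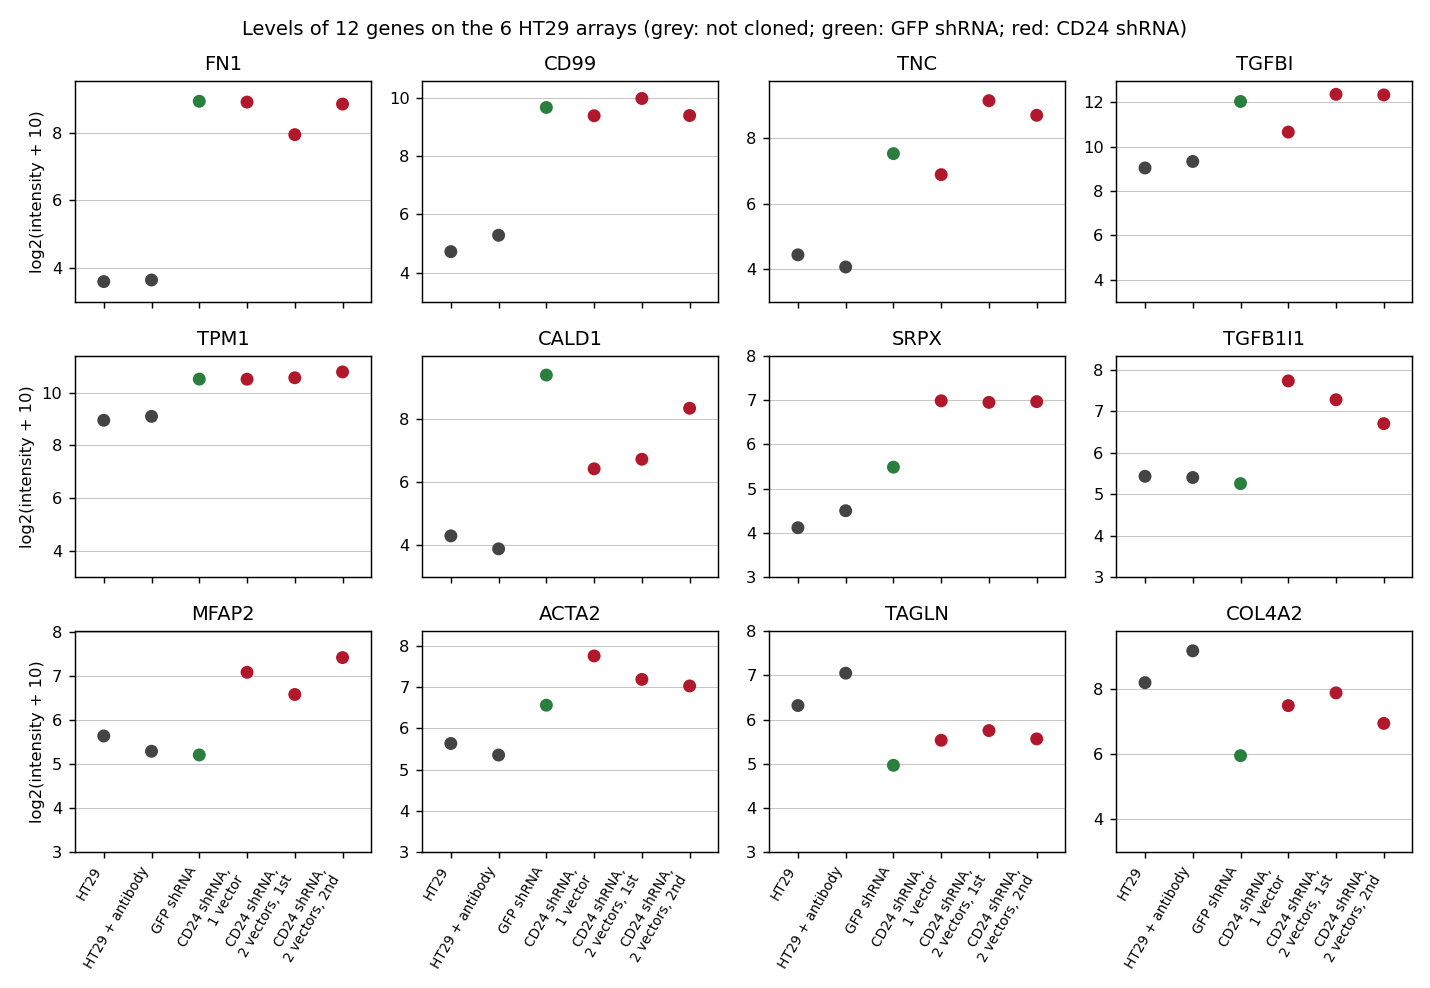
Log2(intensity + 10) of 12 genes on the 6 HT29 arrays, 1 point per array and 1 panel per gene, each panel with its own vertical scale; grey points are uncloned cells, green the GFP shRNA clone and red the CD24 shRNA clones. FN1, CD99, TNC, TGFBI, TPM1 and CALD1 separate all 4 clones from uncloned HT29, whereas the green point of TGFB1I1 and MFAP2 lies with the grey points.

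CALD1 and SRPX narrowly missed the threshold. CALD1, caldesmon, an actin-binding protein of contractile and motile cells, read 9.7 and 4.8 in uncloned HT29. The GFP clone read 665.3, the 1-vector clone 76, and those with 2 vectors 96.1 and 315.7. All clones exceeded the uncloned cells, but over a wide range, and the difference was 3.63 ± 0.80 (adjusted p = 0.0539, limma; 0.0263 without the GFP clone). The other 7 CALD1 probe sets lay below the filter and differed by -0.02 to 2.47. SRPX, a secreted sushi-repeat protein, differed by 2.29 ± 0.49 (adjusted p = 0.0504, limma; 0.00573 without the GFP clone).

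A simpler criterion, that the lowest clone lie at least 1 log2 unit above the brighter uncloned array, was met by 6 of the 19 members: FN1, TNC, TPM1, CALD1, TGFBI and CD99. Over all genes tested 3.14% met it. FN1, TNC, CALD1 and CD99 passed the filter only through the clones, so the share of 6 in 19 supports nothing by itself. The reverse was met by 0 of the 19 members and by 1.30% of all genes. The 3 members with a negative difference were TAGLN, COL4A2 and LAMC1, and none of them passed the test. TAGLN, transgelin, an actin cross-linker of smooth muscle, read 69.7 and 122.5 without cloning and 21.2 to 43.8 in the clones, with a difference of -1.23 ± 0.37 (adjusted p = 0.109, limma). COL4A2, a type IV collagen chain, read 281.2 and 562.6 without cloning, 51.8 in the GFP clone, and 112.6 to 224.5 in the CD24 shRNA clones. Its difference was -1.61 ± 0.57 (adjusted p = 0.151, limma). Neither gene's groups overlapped, but the share of all genes without overlap was not counted. TAGLN was dim in the clones and passed the filter only through uncloned HT29.

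The GFP clone taken alone shows how much of this pattern is present with CD24 still bright. Against untreated HT29, with 1 array each and so no test and no error, 8 of 14 members above the filter differed by 2-fold or more upward: FN1, TNC, LAMB1, TPM1, CALD1, TGFBI, NT5E and CD99. Over all genes tested 14.5% did so. FN1, TNC, CALD1 and CD99 lay below the median of untreated HT29 and entered the 14 only through the GFP clone, and FN1 and TNC left them with 1 added before the log. With no filter, 10 of the 32 measured members were 2-fold or more higher and 3 lower, against 14.6% and 6.08% of all genes. COL4A2 was the only 1 of the 14 that was 2-fold or more lower (-2.24), against 7.11% of all genes. It read 51.8 in the GFP clone, where the array median was 63.1, and entered the 14 only through untreated HT29. The log2 differences were 5.34 for FN1, 5.10 for CALD1, 4.96 for CD99, 3.09 for TNC and 1.56 for TPM1. NT5E, the ecto-5'-nucleotidase CD73 that makes adenosine at the cell surface, read 208.8 in untreated HT29 and 986.3 in the GFP clone, but 265.7 in the 1-vector clone and 235.1 and 577.6 with 2 vectors. LAMB1, the laminin beta-1 chain, read 134.1, 558.8, 170.7, 137.7 and 291.8 in the same order. For both genes the GFP clone was the highest of the 6 HT29 arrays.

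The second comparison, stated in the design of the study, set the 3 CD24 shRNA clones against untreated HT29 and the GFP clone. No gene was called: limma gave 0 of 6752 genes past the adjusted threshold (0%), with 1352 at an unadjusted p under 0.05 and a smallest adjusted p of 0.0745. Over all 32 measured members, with no filter, the median difference was 0.34, with 20 positive and 12 negative, against -0.03 over all genes. Of the 18 members above the filter, THBS1, SRPX, MFAP2 and TGFB1I1 passed it only through the CD24 shRNA clones. The members with the clearest separation were SRPX, TGFB1I1 and MFAP2. In TGFB1I1 and MFAP2 the GFP clone read nearer to untreated HT29 than to the CD24 shRNA clones. In SRPX it lay nearly midway on the log2 scale, 1.37 above untreated HT29 and 1.48 below the mean of the CD24 shRNA clones.

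SRPX read 7.3 in untreated HT29 and 34.8 in the GFP clone, against 116.9, 113.9 and 115.3 in the CD24 shRNA clones. The 3 clones were almost equal, and the GFP clone lay between them and untreated HT29. The difference was 2.17 ± 0.46 (n = 3 and 2; adjusted p = 0.208, limma). TGFB1I1, also called Hic-5, a focal adhesion adaptor with LIM domains, read 33.2 in untreated HT29 and 28.2 in the GFP clone, against 203.7, 145.8 and 94.4. Controls and clones did not overlap, and antibody-treated HT29 read 32.3, close to untreated. The difference was 1.90 ± 0.42 (adjusted p = 0.208, limma). MFAP2, a microfibril-associated glycoprotein, read 39.9 and 27 in the controls and 126.3, 86.1 and 162 in the clones, with a difference of 1.61 ± 0.41 (adjusted p = 0.208, limma).

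Without the GFP clone SRPX passed (2.86, adjusted p = 0.0339), as did FN1 (4.97, 0.0102) and CD99 (4.87, 0.00767). Without untreated HT29, which leaves the GFP clone as the only control, FN1 differed by -0.36, CD99 by -0.08, TGFBI by -0.25 and CALD1 by -2.23, while SRPX, TGFB1I1 and MFAP2 differed by 1.48, 1.99 and 1.83. Without the second 2-vector clone TGFB1I1 passed (2.17, adjusted p = 0.0312). ACTA2, smooth muscle actin, also separated the groups, with 39.7 and 84.7 in the controls and 207, 136.2 and 121 in the clones (1.23 ± 0.44, adjusted p = 0.217, limma). THBS1, LAMB3 and COL1A1 separated them by less, at 0.98, 0.82 and 0.40. The share of all genes that separate these groups without overlap was not counted. Separation alone is therefore no result about the members.

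By the criterion of at least 1 log2 unit between the lowest CD24 shRNA clone and the brighter control, 2 of 18 members were higher, SRPX and TGFB1I1, against 0.355% of all genes tested. The reverse held for 0 of 18 members and 1.29% of all genes. SRPX and TGFB1I1 passed the filter only through the CD24 shRNA clones, so the share of 2 in 18 supports nothing by itself. With 50 added before the log, neither met the criterion. MFAP2 and ACTA2 separated the groups by less than 1 unit.

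The number of vectors could be compared only as 1 clone against 2, with no test. TNC, CALD1 and TGFBI read higher in both 2-vector clones than in the 1-vector clone, by 2.04, 1.11 and 1.69 on the mean of the 2, which is 3 of 19 members against 5.97% of all genes. None of the 19 was lower by that much, against 3.41%. The second 2-vector clone minus the first was 1.62 for CALD1, -0.45 for TNC and -0.03 for TGFBI.

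In the third comparison, cells of both lines were exposed to the antibody. Thrombospondin-1 and the laminin beta-3 chain rose, and the treated array was the brighter one in each line. FN1, CD99, TNC and TGFBI, which rose in the clones, differed in antibody-treated HT29 by 0.05, 0.56, -0.37 and 0.29, with 1 array each. limma called 2 of 21 members higher over both lines, where 1.14% of 6784 genes were called higher and 2.42% lower. The fit had 1 residual degree of freedom.

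THBS1, a matricellular protein that binds CD36 and CD47 and activates latent TGF-beta, read 29.4 in untreated and 80.4 in antibody-treated HT29. In Colo357 it read 75.9 and 441.3. Treated cells were brighter in each line, and more so in Colo357. The difference was 1.80 ± 0.37 (adjusted p = 0.0357, limma), and the 4 other probe sets differed by 0.15 to 2.44. LAMB3, a chain of laminin-332, the anchor of epithelial hemidesmosomes, read 384.4 and 913.2 in HT29 and 1437.1 and 6453.7 in Colo357. Its difference was 1.69 ± 0.35 (adjusted p = 0.0368, limma). Both calls were lost after quantile normalization (adjusted p = 0.115 for each) and with no filter (0.183 for each), where 0 genes were called in all. The THBS1 call held in 2 of 6 alternatives and the LAMB3 call in 2 of 7, with differences of 1.34 to 1.95 among those that lost it.

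**Figure D3:**
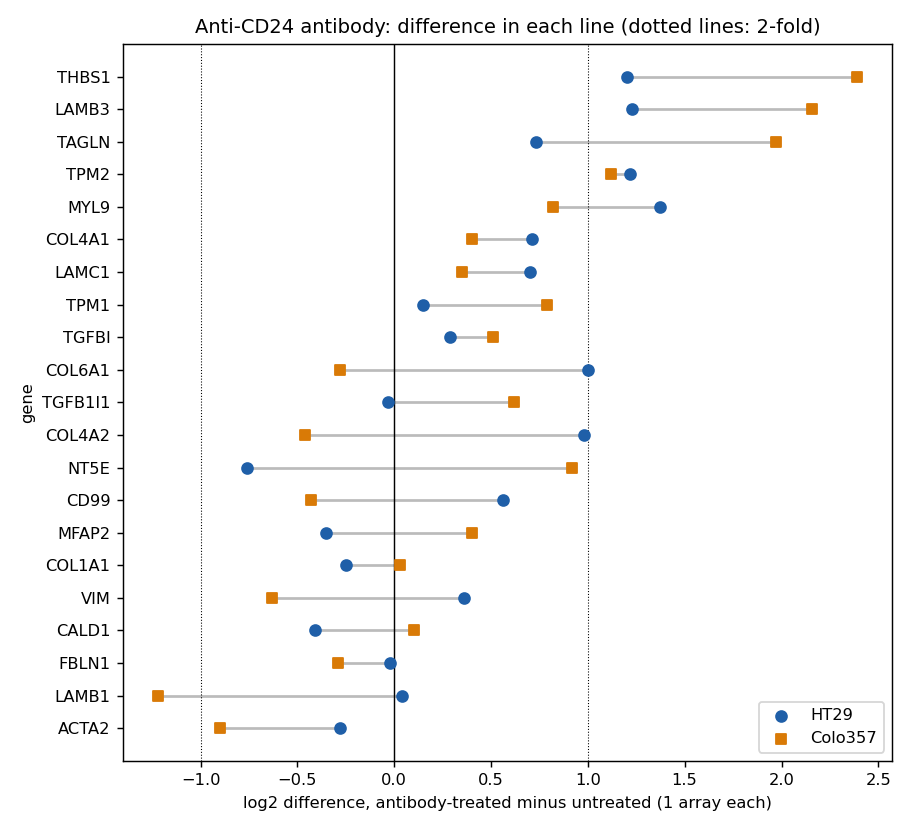
Log2 difference between antibody-treated and untreated cells for 21 genes above the filter, 1 array per condition; blue circles are HT29, orange squares Colo357, and dotted lines mark 2-fold. THBS1, LAMB3 and TPM2 lie beyond 2-fold in both lines, and LAMB1 lies at 0.04 in HT29 and -1.22 in Colo357.

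TPM2, TAGLN and MYL9 came next in size among the cytoskeleton genes and did not pass the test. TPM2, beta-tropomyosin, read 370.2 and 872.8 in HT29 and 866.2 and 1896.5 in Colo357 (1.17 ± 0.32, adjusted p = 0.0695, limma). TAGLN read 69.7 and 122.5 in HT29 and 172.2 and 705.3 in Colo357 (1.35 ± 0.38, adjusted p = 0.0706). MYL9, a regulatory light chain of non-muscle and smooth muscle myosin, read 5.6 and 30.3 in HT29 and 301 and 540.4 in Colo357 (1.10 ± 0.33, adjusted p = 0.0897). In each of the 3 the treated array was the brighter one in both lines. The other cytoskeleton members did not share this: TPM1 differed by 0.47, VIM by -0.14, CALD1 by -0.16 and ACTA2 by -0.59, and none was called.

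Counting arrays 1 against 1, THBS1, LAMB3 and TPM2 were at least 2-fold higher in both lines, 3 of 21 members against 1.68% of all genes, and 0 members were lower in both, against 3.98%. In HT29 the same 3 of 12 members above that filter were higher, against 5.04% of genes, and 0 were lower, against 7.43%. In Colo357 FN1, THBS1, LAMB3, TAGLN and TPM2 were higher, 5 of 22, against 10.6%, and LAMB1 was lower, 1 of 22, against 12.8%. THBS1 entered the 12 of HT29 only through the treated array, as it read 29.4 untreated, where the array median was 44.0. FN1 entered the 22 of Colo357 in the same way, at 39.3 untreated, where the array median was 56.5. The shares of 12 and of 22 therefore support nothing by themselves. A 2-fold difference in HT29 alone was counted for MYL9 (1 of 21 members, 6.32% of genes), but both of its HT29 values lie below the array medians and it passed the filter through Colo357, so it was not interpreted. A difference of that size in Colo357 alone was seen for LAMB1 and TAGLN (2 of 21, 17.0%). FN1 in Colo357 read 39.3 without and 182.3 with the antibody, and in HT29 it stayed at 2.1 and 2.5. LAMB1 read 367.6 and 152.6 in Colo357 and 134.1 and 138.6 in HT29. Its other probe set, also above the filter, differed less, with 293.7 and 185.3 in Colo357 and 91.3 and 101.9 in HT29. The difference between the lines was not tested for either gene.

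The lines themselves were compared in the same fit. Colo357 expressed far more of the mesenchymal set than uncloned HT29: 16 of 21 members were called higher and 0 lower, against 10.9% and 8.56% of all genes. Fibulin-1, the type IV collagen alpha-1 chain, vimentin and CD99 led. Of the 21, 9 were dim in HT29 and passed the filter only through Colo357. Over all 32 measured members, with no filter, the median difference was 1.55, with 30 positive and 2 negative, against 0.01 over all genes.

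FBLN1, a calcium-binding protein of elastic fibres and basement membranes, read 3 and 2.8 in HT29 against 1292.7 and 1056.7 in Colo357 (6.51 ± 0.32, adjusted p = 7.55e-07, limma). VIM, vimentin, read 17.9 and 25.9 against 1631.9 and 1047.7 (5.38 ± 0.36, adjusted p = 3.41e-06). CD99 read 16.4 and 29 against 1530.9 and 1132.4 (5.37 ± 0.36, adjusted p = 3.41e-06). For these genes the lines did not overlap and each line's arrays lay close together. In the 4 HT29 clones VIM read 14.1 to 51.2 and FBLN1 2.4 to 13.9, while CD99 read 663.1 to 1005.3 there.

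COL4A1 and COL4A2 encode the chains that form the common type IV collagen trimer. The genes lie head to head and are transcribed away from each other. COL4A1 read 3.3 and 11.8 in HT29 and 950.3 and 1261.2 in Colo357 (6.02 ± 0.32, adjusted p = 1.04e-06, limma). COL4A2 read 281.2 and 562.6 in HT29 and 1930.7 and 1405 in Colo357 (2.02 ± 0.39, adjusted p = 0.00487). Both were higher in Colo357, and in the clones COL4A1 stayed at 10.1 to 24.5. The 126 bases between their RefSeq starts, at chr13:110307158-110307283 on the plus strand of GRCh38.p14, are shown because they are shared; they hold 80.2% GC, 20 CpG dinucleotides and 1 GC box, in capitals.
COL4A1 to COL4A2: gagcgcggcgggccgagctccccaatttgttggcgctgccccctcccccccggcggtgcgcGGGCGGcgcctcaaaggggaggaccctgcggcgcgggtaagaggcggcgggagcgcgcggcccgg

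**Figure D4:**
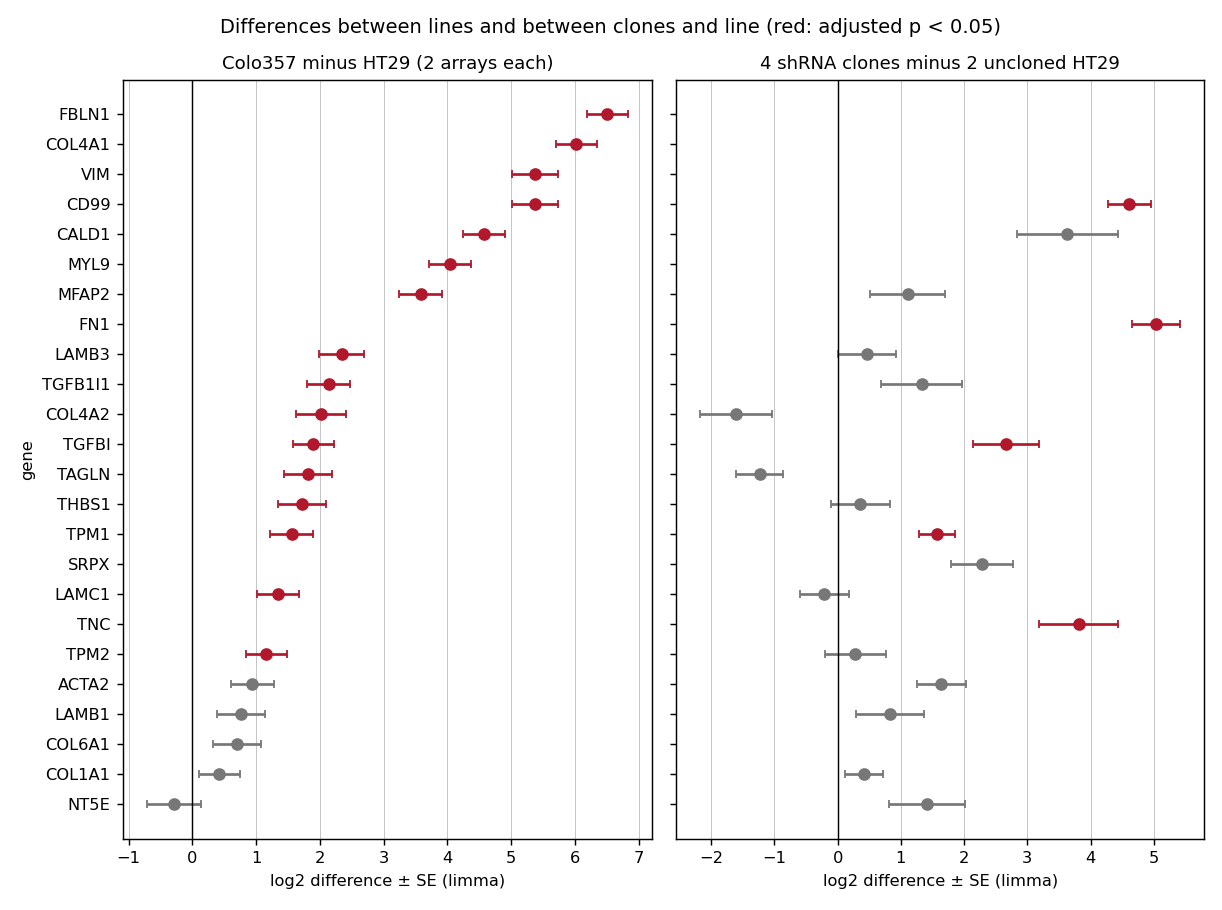
Log2 difference with limma's SE for 24 genes, Colo357 minus uncloned HT29 on the left (2 arrays each) and the 4 shRNA clones minus uncloned HT29 on the right; red points have an adjusted p under 0.05, and a gene below a fit's filter has no point there. CD99, TGFBI and TPM1 are red on both sides, while FBLN1, COL4A1 and VIM appear only on the left and FN1, TNC and SRPX only on the right.

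Other members higher in Colo357 were CALD1 (4.57), MYL9 (4.04), MFAP2 (3.58), LAMB3 (2.34), TGFB1I1 (2.14), TGFBI (1.90), TAGLN (1.81), THBS1 (1.72), TPM1 (1.56), LAMC1, a laminin gamma chain (1.35), and TPM2 (1.16), all as log2 differences. LAMC1 read 150.4 and 249.7 in HT29 and 450 and 575.7 in Colo357. The 5 members tested and not called were LAMB1, COL6A1, ACTA2, COL1A1 and NT5E, with differences of -0.29 for NT5E to 0.94 for ACTA2. FN1 and TNC lay below the filter of this fit, with FN1 at 39.3 and 182.3 and TNC at 22.8 and 53.9 in Colo357.

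Several collagens of stromal cells were dim on all arrays. COL3A1 read at most 20.8, COL5A2 at most 20.9, COL6A3 at most 15.7 and COL1A2 at most 35.7 on any array. SPARC, a collagen-binding matricellular protein abundant in fibroblasts, read at most 15.1. These 5 genes are the members that stayed at or below 45.0, the median of all non-control values, on all 8 arrays. COL5A1 read 70.5 and 28.9 in Colo357 and 19.1 or less on the HT29 arrays, and FBN1, the microfibril protein fibrillin-1, read 24.8 and 46.5 in Colo357 and 10.7 or less elsewhere. COL6A1 and COL6A2 reached 88.3 and 45.5. For signals this low, differences between arrays were not interpreted.

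COL1A1, the alpha-1 chain of type I collagen, depended on the probe set. Its brightest set lay between 66.7 and 113.9 on all 8 arrays and was not called in any of the 4 comparisons. A dimmer set read 3.1 and 5.5 in uncloned HT29, 3.6 in the GFP clone, 31.9 in the 1-vector clone, and 42.3 and 50.3 with 2 vectors. That set read 159.9 and 78.8 in Colo357. On it the GFP clone lay with the uncloned cells and the CD24 shRNA clones lay above, a difference of 1.93 against 0.40 on the brightest set. It was chosen for mention after its values were seen, and no test was made of it.

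Genes of the same pathways, from lists that do not hold the members except where stated, gave few further calls. Of the TGF-beta pathway 1 of 16 genes above the filter was called higher in the 4 clones, SMAD3, the receptor-activated transducer (256.4 and 233.8 without cloning, 643 to 831.8 in the clones; 1.46, adjusted p = 0.0422, limma). TGFB2 and PMEPA1, a ligand and a TGF-beta-induced inhibitor of the pathway, differed by 2.10 and 2.08 with adjusted p = 0.138 and 0.0957. Among 14 matrix-processing genes LOXL1, a collagen and elastin cross-linking oxidase, and MMP7, matrilysin, were called higher (2.84 and 2.54, adjusted p = 0.0397 and 0.0224, limma). Among 4 other collagens COL18A1, which yields endostatin, was called higher (2.77, adjusted p = 0.0144, limma). Over all genes tested 2.43% were called higher. In uncloned HT29 LOXL1 read 2.7 and 13.4 and COL18A1 16.9 and 39.4, below the array medians of 44.0 and 41.0. Both passed the filter only through the clones, so the shares they belong to support nothing by themselves. No gene of 4 other laminins and basement membrane proteins, 14 actin cytoskeleton genes (TGFB1I1 among them) or 10 matrix receptors was called in the clones.

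Of 9 epithelial-mesenchymal transition regulators and epithelial counterparts above the filter, 1 was called lower in the clones, against 0.755% of all genes. This gene, CDH1, was dim in all 4 clones and passed the filter only through uncloned HT29. CDH1, E-cadherin, read 2172.8 and 2209.7 in uncloned HT29 and 1.4 to 15.4 in the 4 clones (-6.89, adjusted p = 4.40e-04, limma). EPCAM differed by -0.97 (adjusted p = 0.237) and ESRP1, an epithelial splicing factor, by -0.67 (adjusted p = 0.549). Of the colorectal markers LGALS4 read 4581.5 and 5625.5 without cloning and 32.5 to 682.2 in the clones, and VIL1 439.3 and 1408.3 against 25 to 248.5 (adjusted p = 0.0676 and 0.0816, limma). KRT20, also a colorectal marker, went the other way, with 1117.1 and 4015.5 without cloning and 2761.4 to 4799.8 in the clones (0.91, adjusted p = 0.348, limma). Of the 6 colorectal markers above the filter, 0 were called in either direction. The part of these epithelial genes in the members' differences was not tested.

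On the antibody 3 other genes of these lists were called, all higher: 1 of 16 matrix-processing genes, 1 of 14 actin cytoskeleton genes and 1 of 11 matrix receptors, against 1.14% of all genes higher and 2.42% lower. No gene at all was called after quantile normalization or with no filter. TIMP2, an inhibitor of matrix metalloproteinases, read 12.8 and 110.4 in HT29 and 313 and 780.8 in Colo357 (1.85, adjusted p = 0.0315, limma). PDLIM7, an actin-associated LIM protein, and SDC4, the proteoglycan syndecan-4 of focal adhesions, differed by 1.78 and 1.46 (adjusted p = 0.0273 and 0.0491). No gene of the TGF-beta list, 18 of which lay above the filter, was called on the antibody, and no gene of any list was called for CD24 shRNA. Between the lines, 7 of 18 genes of the TGF-beta list were higher in Colo357 and 2 lower. Of 10 transition genes 2 were higher and 1 lower. Over all genes tested in that comparison, 10.9% were called higher and 8.56% lower. SNAI2, ID3, INHBB, COL7A1 and NID2, named next, read at most 18 in HT29 and passed the filter only through Colo357. The shares they belong to therefore support nothing by themselves. SNAI2, a transcription factor of mesenchymal transition, was higher in Colo357 (4.43, adjusted p = 5.52e-06, limma), as were ID3, an inhibitory helix-loop-helix factor of the TGF-beta list (6.03), and INHBB, an activin subunit (5.38). DSP, an epithelial gene of the transition list, was also higher (1.49, adjusted p = 0.00886, limma). CLDN3, a tight junction claudin, was lower (-3.40, adjusted p = 3.87e-05, limma). Of 4 other collagens COL7A1 was higher (3.52) and COL9A3 lower (-4.09). Of 5 other basement membrane genes NID2 and LAMB2 were higher (4.72 and 2.02), and HSPG2 and AGRN lower (-1.52 and -1.42).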

How the data were processed

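The authors deposited 1 linear intensity per probe set and array, which the submitters' processing notes name as MAS5, a method that summarises the probes of a set into a signal and scales each array. Its version and its detection calls were not found in these sources. With the top and bottom 2% removed, every array averaged 250.1, so no scaling was added. Of 22277 probe sets, 62 are controls; the platform annotation gave 1 symbol to 19064, several to 1043 and none to 2108, and 19052 symbols were updated through Entrez IDs in RefSeq's GRCh38.p14 gene table. Intensities became log2(intensity + 10), 10 being about the 25th percentile, which understates the differences of dim genes. Each comparison tested genes whose mean over its arrays exceeded the median that all non-control probe sets had there, so a member bright in 1 group only could enter through that group.

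Tests were two-sided, with limma 3.58.1 in R 4.3.3 (lmFit and eBayes) and Benjamini-Hochberg adjustment over all genes of a fit at 0.05. The SE is limma's moderated SE. Colo357 minus HT29 and antibody minus untreated came from 1 fit with line and treatment as terms. Comparisons of 1 array with 1 array were not tested. The code was tested on simulated data. Precision is limited by the number of arrays, and levels of different genes were not compared. The members, lists, tests and motifs were chosen with earlier results of these data known. All members are named; from the other lists, up to 4 genes with the largest difference in the comparison described. Alternatives were the added constant (1 or 50), quantile normalization, the mean of a gene's probe sets, leaving out _x_at probe sets, no filter, 1 fit of all 8 arrays, other controls, other fold limits and leaving out each array.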

Additional observations from a re-analysis of the deposited data

Results flagged for a closer look

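SRPX in the GFP clone stood far from the other 3 clones. It read 34.8 there and 116.9, 113.9 and 115.3 in the CD24 shRNA clones, and the gap from the GFP clone to its nearest neighbour was 0.977 of the range of the 4 clones on the log2 scale, above the critical value of Dixon's test at 95% for a group of this size. Chance exceeds that value in about 1 of 20 groups, and members whose 4 clones spanned less than 1 log2 unit were not looked at.

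LAMB1 was lower with the antibody in Colo357 and nearly level in HT29, with signs that differ. The log2 difference was 0.04 in HT29 and -1.22 in Colo357, so that Colo357 minus HT29 was -1.26. On its other probe set LAMB1 read 293.7 untreated and 185.3 treated in Colo357, and 91.3 and 101.9 in HT29, a smaller gap between the lines. With the mean of its probe sets LAMB1 was no longer 2-fold lower in Colo357. Each difference is 1 array against 1, and the gap between the lines was not tested.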

How the results depend on the processing

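FN1 and CD99 kept their call in the 4 clones in the 13 distinct alternatives run (untreated HT29 as the only control is the same fit as leaving out antibody-treated HT29). Colo357 against HT29 called 12 to 17 members; its count of genes was 1319 as reported and 612 in 1 fit of all 8 arrays. That fit called 663 genes and 9 members in the 4 clones (215 and 5 as reported), 641 and 6 for CD24 shRNA (0 and 0 as reported), and 27 and 0 for the antibody (241 and 2 as reported). Untreated HT29 as the only control left 8 genes and 2 members in the 4 clones and gave 88 and 3 for CD24 shRNA. Leaving out each array in turn gave 8 to 478 genes and 2 to 10 members for the 4 clones, and 0 to 593 genes and 0 to 3 members for CD24 shRNA. For the antibody, adding 1 gave 143 genes and 1 member, adding 50 gave 1 member, quantile normalization gave 0 and 0, the mean of probe sets 68 and 0, no filter 0 and 0, and leaving out _x_at probe sets 157 genes. The causes were not tested.

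Counts of members by fold moved as follows. High in all 4 clones: 3 with the mean of probe sets. High in the CD24 shRNA clones: 0 adding 50, 4 after quantile normalization and 0 at 3-fold. Higher in both lines on the antibody: 1 with the mean of probe sets, 5 at 1.5-fold and 0 at 3-fold. Higher on it in HT29: 5 after quantile normalization, 1 with the mean of probe sets, 7 at 1.5-fold and 0 at 3-fold; lower, 1 at 1.5-fold. Higher on it in Colo357: 3 with the mean of probe sets and 9 at 1.5-fold; lower, 2 adding 1, 0 with the mean of probe sets, 3 at 1.5-fold and 0 at 3-fold. GFP clone against untreated HT29, higher: 5 with the mean of probe sets. Lower with 2 vectors: 2 at 1.5-fold, and 0 to 1 leaving out either 2-vector clone.

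Differences that changed sign were all uncalled. In the 4 clones these were LAMC1 (0.14 with untreated HT29 as the only control) and, leaving out arrays in turn, LAMC1 (-0.56 to 0.14), THBS1 (-0.23 to 0.96), LAMB3 (-0.14 to 1.08) and TPM2 (-0.33 to 0.89). For CD24 shRNA they were CALD1 (-0.13 adding 50, -0.27 without the second 2-vector clone), LAMC1 (0.01 after quantile normalization) and COL4A2 (-0.04 with the mean of probe sets). With untreated HT29 as the only control they were COL4A2 (-0.75), LAMB1 (0.48) and NT5E (0.64), and with the GFP clone as the only control FN1 (-0.36), CALD1 (-2.23), TGFBI (-0.25) and CD99 (-0.08). Leaving out arrays in turn spanned -0.36 to 4.97 for FN1, -0.08 to 4.87 for CD99, -0.25 to 2.75 for TGFBI, -2.23 to 2.87 for CALD1, -1.50 to 0.48 for LAMB1, -1.55 to 0.64 for NT5E and -0.75 to 1.48 for COL4A2. On the antibody they were MFAP2 (-0.02 adding 1), CD99 (-0.08 adding 50) and COL1A1 (0.05 after quantile normalization). No paired analysis was possible because the labels give the groups no shared replicate numbers; the antibody fit already holds the line as a block, 1 treated and 1 untreated array in each. Dim signals limit what can be said of 13 members in the 4 clones, 14 for CD24 shRNA and 11 in the antibody fit, which lay at or below the filter.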
